A study of Mus musculus with 12 samples.

Results

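Solute carriers are the membrane proteins that move nutrients, ions, metals and vitamins into cells and between their compartments. The expressed solute carriers of MC38 cells were described here after MEK inhibition with GDC-0623. A gene was taken when its symbol begins with Slc and a digit and when its probe set averaged at least 7 log2 units over the 12 arrays. Where a gene had several probe sets with 1 symbol, the one with the highest mean stood for it. Of 347 such genes on the array, 119 were kept, 224 lay below 7, and 4 that lay at or above 7 were left out by name. Of the 7 genes so excluded (Slc2a1, Slc2a3, Slc16a1, Slc16a3, Slc7a11, Slc40a1 and Slc11a2), the other 3 were below 7. The 119 members belong to the 18193 genes that the array represents with 1 symbol, of which 7706 averaged at least 7. The members were thus selected on their mean log2 level over all 4 groups, and 115 members reached 7 in each group. Just inside the limit were Slc16a6 at 7.06 and Slc36a1 at 7, and just outside it were Slc35g1 at 6.98 and Slc4a3 at 6.95.

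MC38 is a mouse colon carcinoma line, here a single line cultured as an adherent monolayer. The 4 groups of 3 arrays were cells given 100 nM GDC-0623 for 72 h, cells given the solvent DMSO for 72 h, cells given 100 nM GDC-0623 for 24 h and cells given DMSO for 24 h. GDC-0623 inhibits the kinase MEK, which activates ERK. The labels number the arrays of a group, but no source says that they came from separate cultures, so the p-values measure the spread between these arrays. Values are log2 expression values after robust multichip averaging (RMA), so a difference of 1 is a doubling, and levels of different probe sets are not compared with each other.

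Cells cannot make every amino acid, and growing cells draw them from the medium through carriers such as the Slc7a5 and Slc3a2 pair, while other carriers return amino acids and nucleosides from lysosomes to the cytosol. Carriers of the Slc25 family exchange metabolites across the inner mitochondrial membrane, and the Slc30 and Slc39 families move zinc out of and into the cytosol. Slc35 proteins load nucleotide sugars into the Golgi apparatus and the endoplasmic reticulum. Many amino acid carriers are known targets of the transcription factors ATF4 and MYC, and ERK signaling is known to raise MYC.

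Array medians lay between 4.63 and 4.69. The median SD of a member within a group was 0.11 in 72 h GDC-0623, 0.07 in 72 h DMSO, 0.08 in 24 h GDC-0623 and 0.05 in 24 h DMSO arrays. On the leading principal component (58.7% of variance), replicate 1 of 72 h GDC-0623 stood apart from its group, at 77.4 against 44.8 and 49.8. All 5 measured genes of ERK output (Dusp6, Egr1, Spry4, Etv4 and Etv5) were lower with GDC-0623 at both times. None of 7 epithelial markers reached 7 (highest 5.47), nor did any of 4 leukocyte or 3 endothelial markers, whereas 5 of 6 mesenchymal genes did, and 4 of these 6 rose at 72 h and 3 at 24 h. The part of these shifts in the results below was not tested.

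At 72 h, 28 members were higher and 33 lower with GDC-0623 than with DMSO, which is 23.5% and 27.7% of the 119 and together 51.3%. Of all probe sets on the array, 20.3% passed the same threshold, an adjusted p of 0.05 in limma. Among the other genes at a mean of at least 7, 21.2% were higher and 23% were lower, so the solute carriers passed only slightly more often than genes of their level. At 24 h, 23 members were higher and 20 lower (36.1%), against 16.7% of all probe sets, and 22.1% higher and 14.7% lower among the other genes at that level. Of the 115 members that reached 7 in each group, 25 were higher and 32 lower at 72 h, and 20 higher and 19 lower at 24 h. The median change of the members was -0.01 at 72 h and 0.02 at 24 h, and that of the other genes at that level was -0.03 at 72 h and 0.01 at 24 h. Since RMA equalizes the arrays, these medians do not show whether the carriers shifted as a body, and rises and falls were found side by side.

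Most changes were below 2-fold. A fall of at least 2-fold at 72 h was seen for 5 members and a rise of that size for 1, and at 24 h only Slc5a3 reached it. Of the 28 members higher at 72 h, 19 were also higher at 24 h (67.9% of the 28 and 82.6% of the 23), and of the 33 lower at 72 h, 17 were also lower at 24 h (51.5% of the 33 and 85.0% of the 20). No member passed in opposite directions at the 2 times, and 99 of 119 had the same sign at both. These comparisons share no arrays. How often other genes kept their direction was not computed, so the agreement is not shown to be particular to the carriers. In every called difference the 3 arrays of the groups did not overlap. This was common without a call as well: of all 119 members, 83 had no overlap at 72 h and 79 at 24 h. It therefore adds little to a call.

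**Figure D1:**
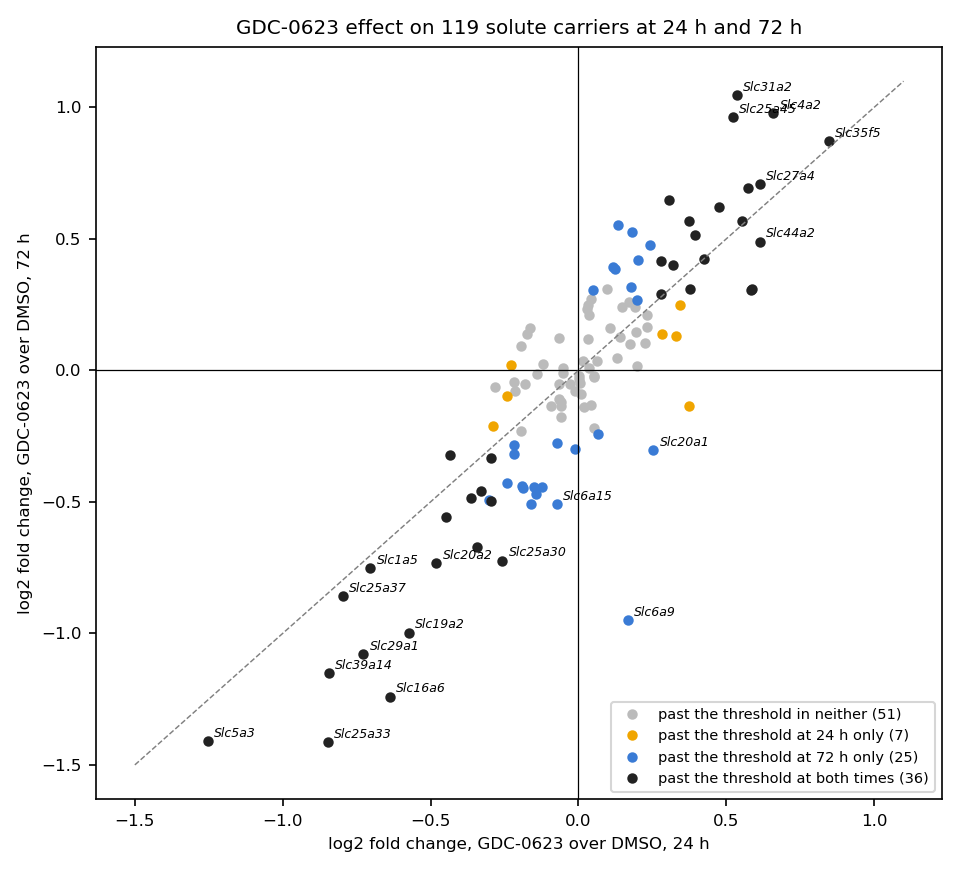
The log2 fold change of GDC-0623 over DMSO at 24 h (horizontal axis) is plotted against that at 72 h (vertical axis) for the 119 members, coloured by the time at which they passed the threshold, with a dashed line of equal effect. 36 members passed at both times, 25 only at 72 h and 7 only at 24 h, and Slc6a9 stands apart with a fall at 72 h only.

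Single arrays bore on many of these calls. Of the 61 members called at 72 h, 18 of 28 higher and 20 of 33 lower stayed past the threshold when each of the 6 arrays was left out in turn, and at 24 h 14 of 23 and 11 of 20 did. In 51 of the 61 members called at 72 h, replicate 1 of GDC-0623 lay farthest from the DMSO group, and in 30 of the 43 called at 24 h replicate 1 of 24 h GDC-0623 did. Without replicate 1 or replicate 2 of 24 h DMSO the count of higher members at 24 h was 15, and the count of lower members was 13 without replicate 1 of 24 h GDC-0623 and 12 without replicate 2 of 24 h DMSO. The 24 h split also depended on scaling: with arrays shifted to equal hybridization controls, 33 members were higher and 8 lower, so that the higher share of called members was 80.5% in place of 53.5%. That shift moved the median of all probe sets to 0.11, in place of -0.04, and that of the members to 0.17, in place of 0.02. Repeated quantile normalization gave 20 higher and 24 lower at 24 h.

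More than 1 probe set was present for 71 members. For the called members with further probe sets, 44 of 76 further probe sets passed in the same direction at 72 h and 27 of 53 did at 24 h, and none passed in the opposite direction at either time.

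**Figure D2:**
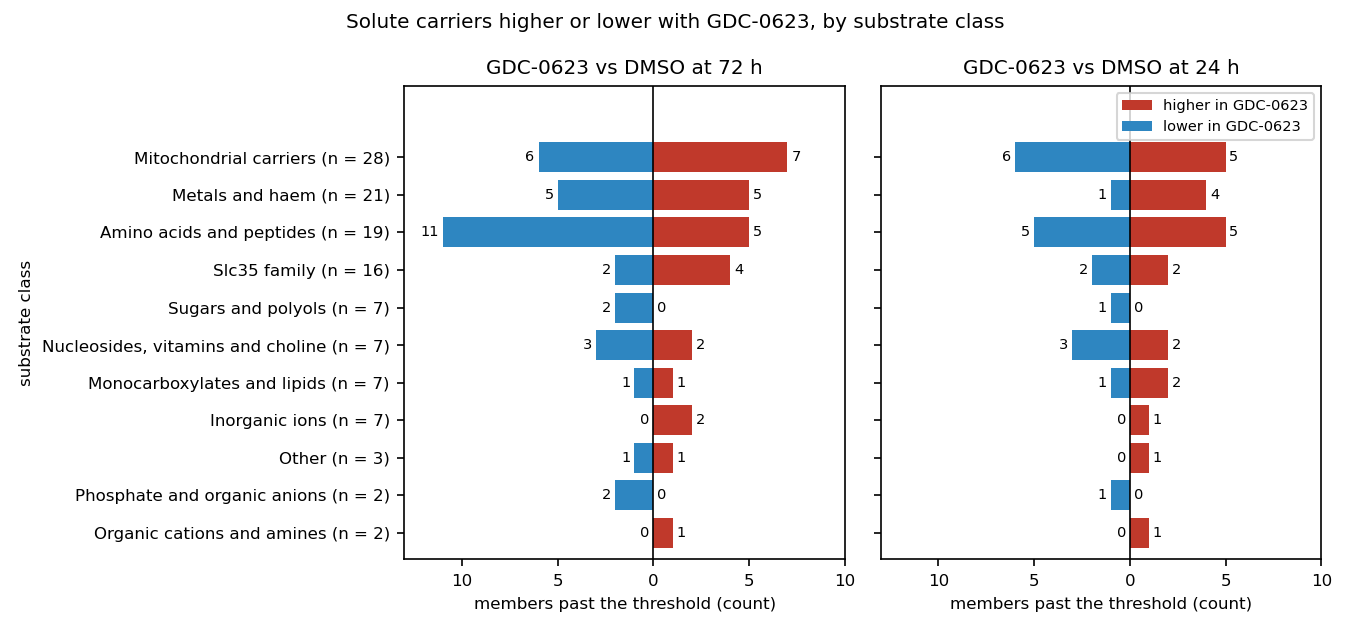
Bars give the number of members higher (red, to the right) or lower (blue, to the left) with GDC-0623 at 72 h and at 24 h in each substrate class, with the class size in parentheses. At 72 h, 11 of 19 amino acid and peptide carriers were lower and 5 higher, and no other class had over 6 lower.

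Amino acid and peptide carriers changed more than any other class of over 3 members at 72 h, with 11 of 19 lower and 5 higher. Among the other genes at a mean of at least 7, 23% were lower and 21.2% higher at 72 h, and 14.7% lower and 22.1% higher at 24 h. These shares are the reference for the counts of each class below as well. The median change of the class was -0.32 at 72 h and -0.07 at 24 h, when 5 were lower and 5 higher. After shifting to hybridization controls the 24 h median of the class was 0.08, with 1 lower and 5 higher. The 11 that fell were carriers known to work at the cell surface or their partner subunit: Slc6a9, Slc1a5, Slc7a5, Slc6a15, Slc38a1, Slc6a8, Slc1a4, Slc7a1, Slc7a6, Slc3a2 and Slc38a2. This grouping by site was made after the values were seen. The 11 fell to 6 without replicate 2 or replicate 3 of 72 h DMSO, and 8 remained past the threshold after shifting to hybridization controls.

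Slc1a5 imports glutamine and other neutral amino acids. Slc1a5 was at 7.99, 8.11 and 8.10 log2 units in the 72 h GDC-0623 arrays, against 8.74, 8.94 and 8.77 in the 72 h DMSO arrays, a change of -0.75 ± 0.09 (SE, n = 3 arrays per group, as throughout, adjusted p = 0.000425). Slc1a5 was at 7.41, 7.63 and 7.55 log2 units in the 24 h GDC-0623 arrays, against 8.29, 8.21 and 8.20 in the 24 h DMSO arrays, a change of -0.70 ± 0.08 (adjusted p = 0.000348). The groups were apart at both times and the call held without any 1 array.

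Slc7a5 is the light chain of the transporter that brings in leucine and other large neutral amino acids. Slc7a5 was at 10.53, 10.96 and 10.99 log2 units in the 72 h GDC-0623 arrays, against 11.45, 11.60 and 11.44 in the 72 h DMSO arrays, a change of -0.67 ± 0.13 (adjusted p = 0.0054). Slc7a5 was at 10.69, 10.87 and 10.98 log2 units in the 24 h GDC-0623 arrays, against 11.14, 11.19 and 11.24 in the 24 h DMSO arrays, a change of -0.34 ± 0.09 (adjusted p = 0.0228). Replicate 1 was the lowest of the GDC-0623 arrays at both times, and the 24 h call was lost under several settings, with an adjusted p of 0.347 after shifting to hybridization controls and 0.0792 without replicate 3 of 24 h DMSO.

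Slc3a2, the heavy chain that pairs with Slc7a5, Slc7a6 and Slc7a11, followed the same direction with a smaller change. Slc3a2 was at 11.75, 11.84 and 11.72 log2 units in the 72 h GDC-0623 arrays, against 12.04, 12.13 and 12.09 in the 72 h DMSO arrays, a change of -0.32 ± 0.08 (adjusted p = 0.0172). This call was lost without replicate 2 of 72 h DMSO (adjusted p = 0.0701) and after shifting to hybridization controls (adjusted p = 0.0513). Slc3a2 was at 11.54, 11.47 and 11.59 log2 units in the 24 h GDC-0623 arrays, against 11.74, 11.71 and 11.80 in the 24 h DMSO arrays, a change of -0.22 ± 0.07 that missed the threshold (adjusted p = 0.0611). The 24 h change passed in some other settings. The adjusted p was 0.0402 in a fit over all 12 arrays, 0.0188 with the filter on dim probe sets, 0.00294 with the trended robust prior and 0.0256 in the fit on gene means. The arrays did not overlap at either time.

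Slc7a1 imports arginine and lysine. Slc7a1 was at 10.43, 10.76 and 10.73 log2 units in the 72 h GDC-0623 arrays, against 10.97, 11.11 and 11.12 in the 72 h DMSO arrays, a change of -0.43 ± 0.10 (adjusted p = 0.0185, and 0.0722 without replicate 2 of 72 h DMSO). At 24 h its change was -0.24 ± 0.08 (adjusted p = 0.0648, 95% interval -0.41 to -0.07). Slc38a2, a sodium-coupled importer of small neutral amino acids, changed by -0.28 ± 0.07 at 72 h (adjusted p = 0.0286), and this call was lost when any 1 of the 6 arrays was left out (highest adjusted p = 0.109). Its 24 h change was -0.07 ± 0.07 (adjusted p = 0.517).

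The remaining falls at 72 h were -0.51 for Slc6a15, a neutral amino acid carrier, -0.50 for Slc38a1, a glutamine carrier, -0.48 for the creatine carrier Slc6a8, -0.45 for Slc1a4, which carries serine and alanine, and -0.33 for Slc7a6, which exchanges cationic for neutral amino acids. Of these 5, Slc38a1, Slc6a8 and Slc7a6 had also fallen at 24 h, by 0.30 for Slc38a1, by 0.36 for Slc6a8 and by 0.30 for Slc7a6. Single arrays ended some of these calls. At 72 h the highest adjusted p was 0.0596 for Slc38a1 without replicate 2 of 72 h DMSO, 0.0639 for Slc6a8 without replicate 1 of 72 h DMSO and 0.0695 for Slc7a6 without replicate 2 of 72 h DMSO, and at 24 h 0.0979 for Slc6a8 without replicate 2 of 24 h GDC-0623 and 0.0668 for Slc7a6 without replicate 2 of 24 h DMSO.

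The 5 members of the class that rose did so at both times. They were Slc36a1, a proton-coupled amino acid carrier of lysosomes, Slc66a1, which exports cationic amino acids from lysosomes, Slc36a4, Slc66a2 and Slc38a10. Slc36a4 was at 7.69, 7.56 and 7.40 log2 units in the 72 h GDC-0623 arrays, against 6.91, 6.93 and 6.94 in the 72 h DMSO arrays, a change of 0.62 ± 0.09 (adjusted p = 0.00146), and the 24 h change was 0.48 ± 0.08 (adjusted p = 0.00351). Slc66a1 was at 7.90, 7.64 and 7.79 log2 units in the 24 h GDC-0623 arrays, against 7.20, 7.13 and 7.25 in the 24 h DMSO arrays, a change of 0.58 ± 0.08 (adjusted p = 0.00134), against 0.31 ± 0.09 at 72 h (adjusted p = 0.0373). The 72 h call of Slc66a1 was kept in only 1 of 6 fits with 1 array left out (highest adjusted p = 0.125, without replicate 2 of 72 h DMSO). Slc36a4 and Slc66a1 thus rose with no overlap between arrays, Slc36a4 more at 72 h and Slc66a1 more at 24 h, although neither difference between times passed its own test (adjusted p = 0.638 for Slc36a4 and 0.31 for Slc66a1).

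Slc38a10 rose by 0.65 at 72 h (adjusted p = 0.00179) and by 0.31 at 24 h, Slc36a1 by 0.57 at 72 h and 0.37 at 24 h, and Slc66a2 by 0.31 at 72 h and 0.38 at 24 h. The adjusted p reached 0.0686 for Slc66a2 without replicate 1 of 72 h DMSO at 72 h, and 0.102 for Slc36a1 without replicate 2 of 24 h DMSO and 0.0989 for Slc38a10 without replicate 2 of 24 h DMSO at 24 h. At 24 h the call of Slc38a10 was kept in only 1 of 6 fits with 1 array left out, and that of Slc36a1 in 2. Slc36a1 and Slc36a4 averaged below 7 in DMSO at both times and entered the set through their level with GDC-0623. The level filter thus favoured their rises and the count of higher members in this class. The 3 members that did not pass at 72 h, namely the taurine carrier Slc6a6, the lysosomal glutamine carrier Slc38a7 and the lysosomal histidine and peptide carrier Slc15a4, changed by -0.02, 0.10 and 0.23 in that order.

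**Figure D3:**
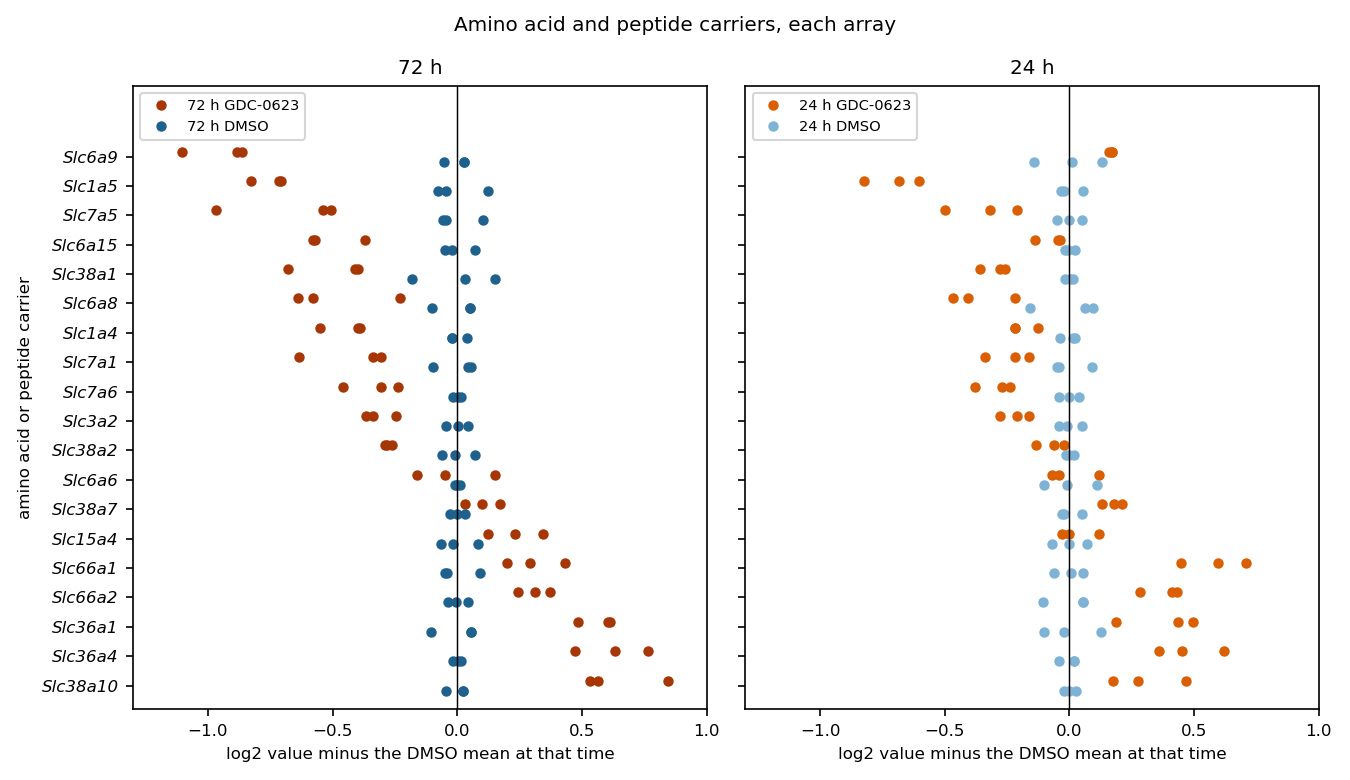
Each point is 1 array of an amino acid or peptide carrier, as its log2 value minus the DMSO mean of that time, at 72 h and at 24 h, with GDC-0623 in orange above DMSO in blue and genes ordered by their 72 h change. The top 11 genes lie left of their DMSO arrays at 72 h and the bottom 5 lie to the right at both times.

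Promoter sequences are shown for 5 called members that were chosen because they hold a match to a motif searched, 3 of them lower and 2 higher with GDC-0623, so that the place of the match can be seen. RefSeq start regions of build GRCm38.p6, 250 bases before to 50 after a start, were at hand for 96 of the 119 members. They were searched on both strands for the ATF4-type amino acid response element TGATGCAA and the E-box CACGTG, which MYC and the TFEB family bind and which reads the same on both strands. The 190 bases from 180 before to 10 after the start are printed in the direction of transcription, with matches in capitals.
Slc1a4 (lower at 72 h, GRCm38.p6 chr11:20332704-20332893, minus strand, response element on the opposite strand): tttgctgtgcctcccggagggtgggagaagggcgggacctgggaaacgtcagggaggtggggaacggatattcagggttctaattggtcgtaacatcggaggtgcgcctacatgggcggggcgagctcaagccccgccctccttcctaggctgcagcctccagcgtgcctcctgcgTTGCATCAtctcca
Slc25a33 (lower at both times, chr4:149774258-149774447, minus strand, E-box): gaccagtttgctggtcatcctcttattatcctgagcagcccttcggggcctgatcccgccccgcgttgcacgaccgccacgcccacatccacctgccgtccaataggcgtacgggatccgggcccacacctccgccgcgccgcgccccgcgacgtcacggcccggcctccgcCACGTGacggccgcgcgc
Slc20a1 (lower at 72 h, chr2:129198593-129198782, plus strand, E-boxes): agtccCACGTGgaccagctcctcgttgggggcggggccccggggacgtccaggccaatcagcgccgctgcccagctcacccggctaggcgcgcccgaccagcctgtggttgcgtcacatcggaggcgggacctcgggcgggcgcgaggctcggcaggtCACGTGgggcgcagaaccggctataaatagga
Slc35a5 (higher at both times, chr16:45158664-45158853, minus strand, E-boxes): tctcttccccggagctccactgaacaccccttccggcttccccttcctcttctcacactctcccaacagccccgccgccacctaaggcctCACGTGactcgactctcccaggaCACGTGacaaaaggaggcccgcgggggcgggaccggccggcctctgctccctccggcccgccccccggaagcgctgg
Slc36a1 (higher at both times, chr11:55204160-55204349, plus strand, E-boxes): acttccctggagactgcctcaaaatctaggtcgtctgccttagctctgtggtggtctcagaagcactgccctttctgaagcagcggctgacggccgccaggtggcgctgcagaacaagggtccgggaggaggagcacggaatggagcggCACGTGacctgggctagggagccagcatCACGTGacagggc

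The amino acid response element was found in 2 of 96 members (2.08%), Slc1a4 and Slc50a1, against 1.03% of all 27025 genes with a start region. Slc1a4 was the only one of 12 amino acid and peptide carriers with a start region that held it. Its element begins 4 bases before the start. The E-box was found in 21 of 96 members (21.9%), against 8.09% of all genes and 12.7% of the genes at a mean of at least 7. It stood in 5 of 23 members lower at 72 h, 7 of 25 higher and 9 of 48 not called, so members with it went both ways. A match describes the letters only.

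Of 28 mitochondrial carriers, 7 were higher and 6 lower at 72 h, shares near those of the other genes at a mean of at least 7 (21.2% higher and 23% lower), and 5 were higher and 6 lower at 24 h. The largest fall was in Slc25a33, which carries pyrimidine nucleotides into mitochondria and whose start region with an E-box is printed above. Slc25a33 was at 8.84, 9.36 and 9.24 log2 units in the 72 h GDC-0623 arrays, against 10.58, 10.53 and 10.57 in the 72 h DMSO arrays, a change of -1.41 ± 0.13 (adjusted p = 0.000125). Slc25a33 was at 8.90, 8.93 and 9.20 log2 units in the 24 h GDC-0623 arrays, against 9.88, 9.81 and 9.88 in the 24 h DMSO arrays, a change of -0.85 ± 0.09 (adjusted p = 0.000273). No GDC-0623 array came within reach of a DMSO array at either time.

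Slc25a37, mitoferrin 1, brings iron into mitochondria. Slc25a37 was at 8.38, 8.44 and 8.47 log2 units in the 72 h GDC-0623 arrays, against 9.30, 9.24 and 9.32 in the 72 h DMSO arrays, a change of -0.86 ± 0.07 (adjusted p = 0.000103), and the 24 h change was -0.80 ± 0.09 (adjusted p = 0.000476). Its relative Slc25a28, mitoferrin 2, changed by -0.24 ± 0.07 at 24 h (adjusted p = 0.0482) and by -0.10 ± 0.08 at 72 h (adjusted p = 0.456). Slc25a13, an aspartate and glutamate exchanger, fell by 0.56 at 72 h and by 0.45 at 24 h (adjusted p = 0.00338 at 72 h and 0.00321 at 24 h), whereas its close relative Slc25a12 rose by 0.32 at 72 h (adjusted p = 0.022) and stood at 0.18 at 24 h (adjusted p = 0.0976).

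The ADP/ATP exchangers also differed. Slc25a5 was at 11.87, 12.21 and 12.24 log2 units in the 72 h GDC-0623 arrays, against 12.56, 12.55 and 12.58 in the 72 h DMSO arrays, a change of -0.46 ± 0.11 (adjusted p = 0.0145, and 0.0504 without replicate 3 of 72 h DMSO), with -0.33 ± 0.07 at 24 h (adjusted p = 0.00959). After shifting to hybridization controls the 24 h change of Slc25a5 was -0.18 and did not pass (adjusted p = 0.392). Slc25a4 changed by 0.12 ± 0.07 at 72 h (adjusted p = 0.326) and by 0.03 ± 0.07 at 24 h. Slc25a3, the mitochondrial phosphate carrier, changed by -0.05 ± 0.07 at 72 h (95% interval -0.21 to 0.11).

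Among the rises, Slc25a45 was at 8.37, 7.73 and 7.78 with GDC-0623 and 6.98, 6.80 and 7.21 with DMSO at 72 h, a change of 0.96 ± 0.17 (adjusted p = 0.00431), in which replicate 1 of GDC-0623 was the highest array, and it rose by 0.52 at 24 h. Slc25a45 averaged just below the level limit of 7 in 72 h DMSO. Slc25a1, which exports citrate from mitochondria, was at 9.57, 9.36 and 9.31 with GDC-0623 and 8.92, 8.73 and 8.83 with DMSO at 24 h, a change of 0.59 ± 0.09 (adjusted p = 0.00191). At 72 h the change of Slc25a1 was 0.31 ± 0.08 (adjusted p = 0.0184, lost at 0.0722 without replicate 1 of 72 h DMSO). Slc25a20, the carnitine and acylcarnitine exchanger, rose by 0.42 at 72 h and 0.43 at 24 h, and the NAD carrier Slc25a51 rose by 0.29 at 72 h and 0.28 at 24 h. With 1 array left out the adjusted p reached 0.0892 for Slc25a12 without replicate 2 of 72 h DMSO and 0.0897 for Slc25a51 without replicate 2 of 72 h DMSO at 72 h, and 0.129 for Slc25a28 without replicate 1 of 24 h DMSO and 0.0708 for Slc25a51 without replicate 2 of 24 h DMSO at 24 h. The calls of Slc25a51 at 72 h and at 24 h, and that of Slc25a28 at 24 h, were each kept in only 1 of 6 such fits. The 15 carriers of the class not called at 72 h changed by -0.22 to 0.27, and the 17 not called at 24 h by -0.21 to 0.20.

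Of 21 metal and haem carriers, 5 were higher and 5 lower at 72 h, and 4 were higher and 1 lower at 24 h. The 72 h shares were near those of the other genes at a mean of at least 7 (21.2% higher and 23% lower). At 24 h those genes stood at 22.1% higher and 14.7% lower. Slc39a14 imports zinc and iron. Slc39a14 was at 7.52, 7.82 and 7.71 log2 units in the 72 h GDC-0623 arrays, against 8.80, 8.89 and 8.81 in the 72 h DMSO arrays, a change of -1.15 ± 0.09 (adjusted p = 7.3e-05). Slc39a14 was at 7.67, 7.91 and 7.89 log2 units in the 24 h GDC-0623 arrays, against 8.66, 8.72 and 8.62 in the 24 h DMSO arrays, a change of -0.84 ± 0.08 (adjusted p = 0.000172). The groups were well apart at both times, and it was the only metal carrier that fell at 24 h.

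Slc39a10, another zinc importer, was at 9.09, 9.23 and 9.22 with GDC-0623 and 9.57, 9.73 and 9.65 with DMSO at 72 h, a change of -0.47 ± 0.08 (adjusted p = 0.00377), and changed by -0.14 ± 0.07 at 24 h (adjusted p = 0.196). Slc30a1, the zinc exporter of the cell surface, did not pass at either time: its change was -0.06 ± 0.08 at 72 h (95% interval -0.25 to 0.13) and -0.28 ± 0.09 at 24 h (adjusted p = 0.0589, 95% interval -0.48 to -0.08). The 24 h change passed in other settings, with an adjusted p of 0.0488 with the replicate block and 0.0182 with the trended robust prior. The haem carrier Slc48a1 fell by 0.51 at 72 h (adjusted p = 0.00326), and the vesicular zinc carriers Slc30a4 and Slc30a5 by 0.30 and 0.28. The calls of Slc30a4 and Slc30a5 were each kept in only 1 of 6 fits with 1 array left out. Their adjusted p was highest without replicate 2 of 72 h DMSO (0.115 for Slc30a4 and 0.134 for Slc30a5).

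Slc31a2, a copper carrier of intracellular membranes, was the only member that rose at least 2-fold with GDC-0623. Slc31a2 was at 8.79, 8.32 and 8.48 log2 units in the 72 h GDC-0623 arrays, against 7.57, 7.38 and 7.50 in the 72 h DMSO arrays, a change of 1.05 ± 0.12 (adjusted p = 0.000468). Slc31a2 was at 7.99, 7.92 and 7.97 log2 units in the 24 h GDC-0623 arrays, against 7.57, 7.38 and 7.32 in the 24 h DMSO arrays, a change of 0.54 ± 0.08 (adjusted p = 0.00184). The cell surface copper importer Slc31a1 changed by 0.15 ± 0.07 at 72 h (adjusted p = 0.213) and 0.20 ± 0.06 at 24 h (adjusted p = 0.0705). Other rises at 72 h were 0.55 for Slc39a13, 0.48 for Slc41a3, 0.42 for the zinc importer Slc39a1 and 0.42 for Slc30a7, a zinc carrier of the Golgi apparatus. At 24 h, Slc30a7 rose by 0.28, Slc41a2 by 0.28 and Slc39a9 by 0.34. The call of Slc39a9 was not kept by the mean over its probe sets (0.09, adjusted p = 0.271). With 1 array left out the adjusted p reached 0.0639 for Slc39a1 without replicate 1 of 72 h DMSO at 72 h, and 0.0772 for Slc30a7 without replicate 1 of 24 h DMSO, 0.0554 for Slc41a2 without replicate 3 of 24 h DMSO and 0.0543 for Slc39a9 without replicate 2 of 24 h DMSO at 24 h. The 11 metal carriers not called at 72 h changed by -0.11 to 0.25.

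**Figure D4:**
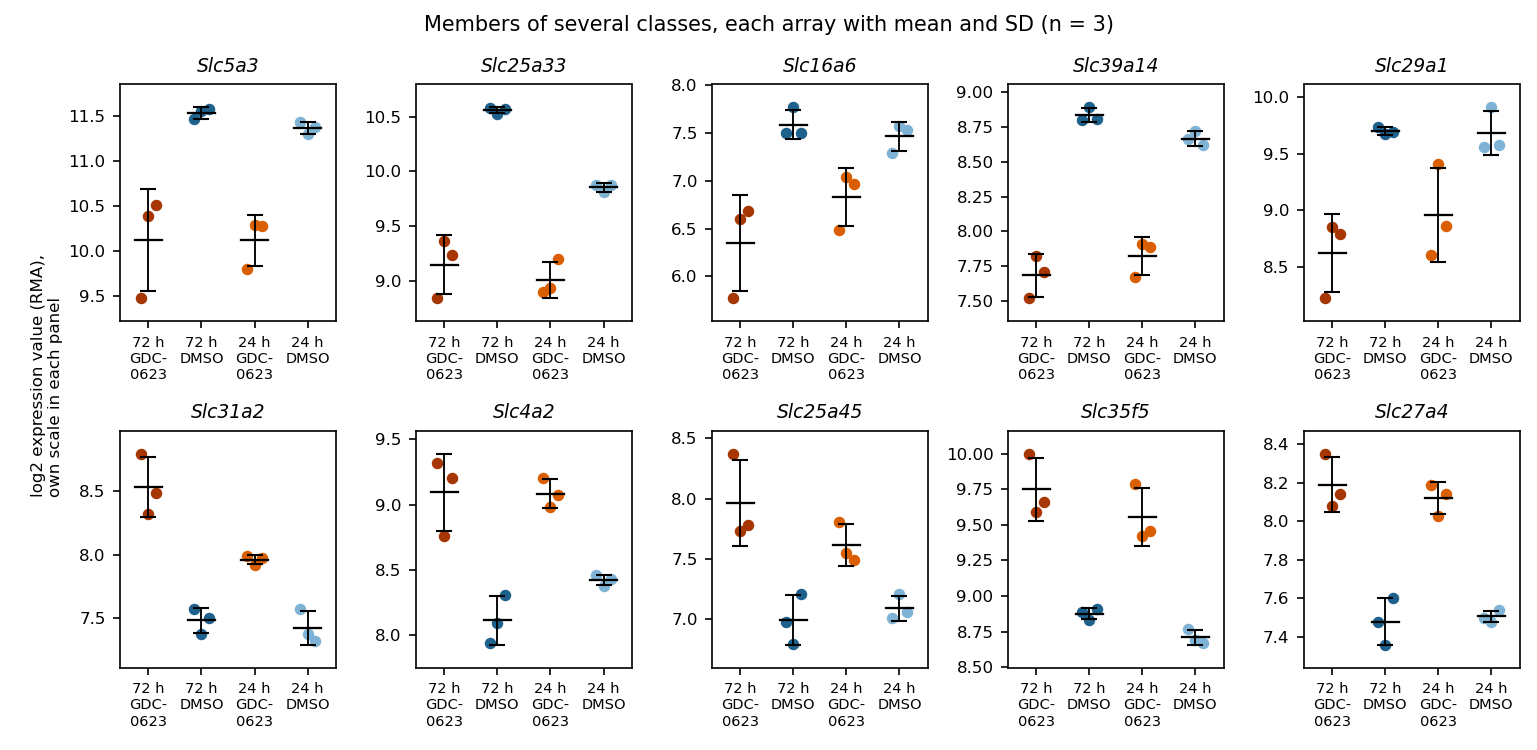
Log2 values of 10 members on each array (points) with the group mean (line) and SD (bars), at 72 h and at 24 h, GDC-0623 in orange and DMSO in blue, each panel on its own scale. The 5 genes of the upper row are lower with GDC-0623 at both times and the 5 of the lower row higher, with replicate 1 of 72 h GDC-0623 (leftmost point) the most extreme array in all 10.

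Slc5a3 imports myo-inositol, an osmolyte and the base of inositol lipids, and had the largest change of any member at 24 h. Slc5a3 was at 9.47, 10.38 and 10.51 log2 units in the 72 h GDC-0623 arrays, against 11.46, 11.55 and 11.58 in the 72 h DMSO arrays, a change of -1.41 ± 0.23 (adjusted p = 0.00268). Slc5a3 was at 9.79, 10.28 and 10.27 log2 units in the 24 h GDC-0623 arrays, against 11.43, 11.30 and 11.37 in the 24 h DMSO arrays, a change of -1.25 ± 0.13 (adjusted p = 0.000192). Replicate 1 was the lowest GDC-0623 array at both times, and both calls held without it. A second probe set of the gene changed by -1.44 at 72 h and -1.75 at 24 h. In the RefSeq table the gene's span overlaps that of Mrps6.

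Of the other sugar and polyol carriers, only Slc5a4a passed at 72 h. Slc5a4a, of the sodium and glucose carrier family, was at 8.34, 8.48 and 8.41 with GDC-0623 and 9.17, 8.90 and 8.64 with DMSO at 72 h, a change of -0.49 ± 0.13 (adjusted p = 0.0229) that was lost without replicate 1 of 72 h GDC-0623 (adjusted p = 0.0757). The 5 carriers not called at 72 h, which include the glucose-6-phosphate carrier Slc37a4 and the glucose carrier Slc2a8, changed by -0.23 to 0.24. With the mean over a gene's probe sets, 2 of the 7 were higher and 3 lower at 72 h. At 24 h Slc5a3 was the only one of 7 that passed, and the 6 others changed by -0.30 to 0.23.

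Of 7 nucleoside, vitamin and choline carriers, 3 were lower and 2 higher at both times. Slc29a1 is the main equilibrative nucleoside carrier of the cell surface. Slc29a1 was at 8.22, 8.85 and 8.79 log2 units in the 72 h GDC-0623 arrays, against 9.74, 9.67 and 9.69 in the 72 h DMSO arrays, a change of -1.08 ± 0.15 (adjusted p = 0.00127). Slc29a1 was at 8.60, 9.41 and 8.86 log2 units in the 24 h GDC-0623 arrays, against 9.56, 9.91 and 9.58 in the 24 h DMSO arrays, a change of -0.73 ± 0.18 (adjusted p = 0.0244). The 24 h arrays spread widely, with replicate 2 highest in both groups, and this call was lost with the trended robust prior (adjusted p = 0.0785) and without replicate 2 of 24 h DMSO (adjusted p = 0.086).

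Slc19a2 imports thiamine and Slc19a1 reduced folate. Slc19a2 was at 8.29, 8.66 and 8.42 log2 units in the 72 h GDC-0623 arrays, against 9.39, 9.59 and 9.38 in the 72 h DMSO arrays, a change of -1.0 ± 0.11 (adjusted p = 0.000373), and the 24 h change was -0.57 ± 0.08 (adjusted p = 0.00105). Slc19a1 was at 8.55, 8.58 and 8.76 log2 units in the 24 h GDC-0623 arrays, against 9.05, 9.05 and 9.09 in the 24 h DMSO arrays, a change of -0.43 ± 0.08 (adjusted p = 0.00425), which was lost after shifting to hybridization controls (-0.28, adjusted p = 0.119). Slc19a1 changed by -0.32 ± 0.09 at 72 h (adjusted p = 0.035). With 1 array left out this call was kept in only 1 of 6 fits (highest adjusted p = 0.12, without replicate 3 of 72 h DMSO). It was also lost after shifting to hybridization controls (adjusted p = 0.0605) and in the mean over its probe sets (-0.22, adjusted p = 0.0718).

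The rises in this class were in Slc29a3, the nucleoside carrier of lysosomes, and in Slc44a2, a choline carrier. Slc29a3 was at 8.33, 8.03 and 7.93 log2 units in the 72 h GDC-0623 arrays, against 7.53, 7.62 and 7.59 in the 72 h DMSO arrays, a change of 0.52 ± 0.11 (adjusted p = 0.0089), with 0.39 ± 0.08 at 24 h (adjusted p = 0.00989). The surface and the lysosomal nucleoside carrier thus went in opposite directions at both times. Slc44a2 was at 8.81, 8.66 and 8.61 log2 units in the 24 h GDC-0623 arrays, against 8.08, 8.12 and 8.04 in the 24 h DMSO arrays, a change of 0.61 ± 0.08 (adjusted p = 0.000632), and at 72 h the change was 0.49 ± 0.13 (adjusted p = 0.0236, and 0.0904 without replicate 1 of 72 h DMSO). The choline carrier Slc44a1 changed by 0.04 at 72 h and 0.06 at 24 h, and the ascorbate carrier Slc23a2 by -0.08 at 72 h and -0.01 at 24 h, with no call.

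Among 7 carriers of monocarboxylates and lipids, Slc16a6 fell at both times. Slc16a6 was at 5.77, 6.60 and 6.68 log2 units in the 72 h GDC-0623 arrays, against 7.50, 7.77 and 7.50 in the 72 h DMSO arrays, a change of -1.24 ± 0.21 (adjusted p = 0.00359), and the 24 h change was -0.64 ± 0.14 (adjusted p = 0.0146, and 0.0516 in a fit over all 12 arrays). Without 1 array the 24 h value reached 0.0551 for Slc16a6 without replicate 2 of 24 h DMSO. Replicate 1 of 72 h GDC-0623 was the lowest by a wide margin, and the gene averaged below 7 with GDC-0623. Slc27a4, a fatty acid importer with acyl-CoA synthetase activity, rose. Slc27a4 was at 8.35, 8.08 and 8.14 log2 units in the 72 h GDC-0623 arrays, against 7.48, 7.36 and 7.60 in the 72 h DMSO arrays, a change of 0.71 ± 0.10 (adjusted p = 0.00129), with 0.61 ± 0.07 at 24 h (adjusted p = 0.000443). Slc16a10, which carries aromatic amino acids although its family is that of the monocarboxylate carriers, rose by 0.37 at 24 h (adjusted p = 0.0328, and 0.109 without replicate 2 of 24 h DMSO) and changed by -0.13 at 72 h (adjusted p = 0.404). A second probe set, at a mean of 7.15, changed by 0.47 at 24 h (adjusted p = 0.0186) and -0.27 at 72 h (adjusted p = 0.0519). Its difference between times passed (-0.74, adjusted p = 0.0162), whereas that of the first did not (-0.51, adjusted p = 0.103). The others, at 5.08 and 4.375, passed in none of these, and the mean over the probe sets did not pass at 24 h (adjusted p = 0.0751).

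Both sodium-coupled phosphate importers were called lower at 72 h, but the call of Slc20a1 depended on single arrays and on the setting. Slc20a2 was at 8.00, 8.35 and 8.37 log2 units in the 72 h GDC-0623 arrays, against 8.97, 8.98 and 8.97 in the 72 h DMSO arrays, a change of -0.73 ± 0.11 (adjusted p = 0.00151), with -0.48 ± 0.09 at 24 h (adjusted p = 0.00714, and 0.0544 after shifting to hybridization controls). Slc20a1 was at 10.58, 10.51 and 10.33 log2 units in the 72 h GDC-0623 arrays, against 10.77, 10.84 and 10.72 in the 72 h DMSO arrays, a change of -0.30 ± 0.09 (adjusted p = 0.0401). With 1 array left out, the call of Slc20a1 was kept in only 1 of 6 fits (highest adjusted p = 0.137, without replicate 2 of 72 h DMSO). It was also lost after shifting to hybridization controls (-0.29, adjusted p = 0.0919) and in the mean over its probe sets (-0.08, adjusted p = 0.595). The other 2 probe sets of the gene averaged 4.87 and 3.41.

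Of 7 inorganic ion carriers, 2 were higher at 72 h and 1 at 24 h, and none was lower. Slc4a2, which exchanges chloride for bicarbonate, rose at both times. Slc4a2 was at 9.32, 8.76 and 9.20 log2 units in the 72 h GDC-0623 arrays, against 7.94, 8.09 and 8.31 in the 72 h DMSO arrays, a change of 0.98 ± 0.15 (adjusted p = 0.00204). Slc4a2 was at 9.20, 8.98 and 9.07 log2 units in the 24 h GDC-0623 arrays, against 8.46, 8.38 and 8.43 in the 24 h DMSO arrays, a change of 0.66 ± 0.08 (adjusted p = 0.000468). The potassium and chloride cotransporter Slc12a7 rose by 0.39 at 72 h (adjusted p = 0.00658) and stood at 0.12 at 24 h (adjusted p = 0.305). Slc12a2, the sodium, potassium and chloride importer, changed by 0.01 ± 0.07 at 72 h (95% interval -0.16 to 0.18) and -0.05 ± 0.07 at 24 h (95% interval -0.20 to 0.09). Its probe sets disagreed at 24 h: a second one was lower (-0.31, adjusted p = 0.028), as was the mean over all 3 (-0.25, adjusted p = 0.0494).

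Slc18b1, a vesicular polyamine carrier, rose by 0.40 at 72 h (adjusted p = 0.0233) and 0.32 at 24 h (adjusted p = 0.0123), with both calls lost without replicate 1 of DMSO of that time (0.091 at 72 h and 0.0508 at 24 h). The carnitine importer Slc22a5 changed by 0.16 at 72 h and 0.11 at 24 h without a call. Slc49a4, found in lysosomal membranes, was at 8.11, 8.09 and 8.15 with GDC-0623 and 7.53, 7.67 and 7.49 with DMSO at 24 h, a rise of 0.55 (adjusted p = 0.000911), and rose by 0.57 at 72 h (adjusted p = 0.00519). The set also holds Slc9a3r1, a scaffold protein of exchangers, and Slc4a1ap, neither of which is a transporter. Slc9a3r1 fell by 0.44 at 72 h (adjusted p = 0.00848).

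In the Slc35 family, 4 of 16 were higher and 2 lower at 72 h, and 2 higher and 2 lower at 24 h. Among the other genes at a mean of at least 7, 21.2% were higher and 23% lower at 72 h, and 22.1% and 14.7% at 24 h. The largest rises were in Slc35f5 and Slc35a5. Slc35f5 was at 10, 9.59 and 9.66 log2 units in the 72 h GDC-0623 arrays, against 8.89, 8.83 and 8.91 in the 72 h DMSO arrays, a change of 0.87 ± 0.11 (adjusted p = 0.000765), with 0.85 ± 0.10 at 24 h (adjusted p = 0.000539). Slc35a5 was at 8.53, 8.29 and 8.59 log2 units in the 72 h GDC-0623 arrays, against 7.86, 7.75 and 7.72 in the 72 h DMSO arrays, a change of 0.69 ± 0.10 (adjusted p = 0.00126), with 0.57 ± 0.09 at 24 h (adjusted p = 0.00178). Both genes were apart from DMSO on all arrays at both times.

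Slc35b2, which brings the sulphate donor PAPS into the Golgi apparatus, rose by 0.39 at 72 h (adjusted p = 0.00786), and Slc35b1, which brings ATP into the endoplasmic reticulum, by 0.31 (adjusted p = 0.0148). The UDP-N-acetylglucosamine carrier Slc35a3 fell by 0.44 at 72 h (adjusted p = 0.00602) and Slc35d1, a carrier of UDP-glucuronic acid, by 0.44 (adjusted p = 0.00773). Slc35a1, which carries CMP-sialic acid, changed by -0.23 ± 0.07 at 24 h (adjusted p = 0.0486), a call lost when any 1 array was left out, with the replicate block (adjusted p = 0.084) and after shifting to hybridization controls (-0.08, adjusted p = 0.757), and by 0.02 ± 0.08 at 72 h (95% interval -0.16 to 0.20). Slc35e2 fell by 0.29 at 24 h (adjusted p = 0.026), which was lost after shifting to hybridization controls (-0.14, adjusted p = 0.53). With 1 array left out the adjusted p reached 0.0568 for Slc35b1 without replicate 2 of 72 h DMSO at 72 h, and 0.152 for Slc35a1 without replicate 1 of 24 h DMSO and 0.0853 for Slc35e2 without replicate 2 of 24 h DMSO at 24 h. The 24 h call of Slc35e2 was kept in only 1 of 6 such fits. The 10 members not called at 72 h changed by -0.21 to 0.21.

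The 72 h and 24 h arrays were also compared within each treatment. In DMSO, 22 members were higher and 4 lower at 72 h than at 24 h (21.8% of the 119), against 11.1% of all probe sets, and 14.2% higher and 9.82% lower among the other genes at a mean of at least 7. With GDC-0623, 11 were higher and 4 lower (12.6%), against 7.7% of all probe sets, and 8.12% higher and 5.64% lower among the other genes at that level. Counting both directions, the members passed no more often than the other genes at their level in either treatment. In DMSO the 4 lower became 14 with the filter on dim probe sets, 17 with the trended robust prior and 10 with the mean over a gene's probe sets. After shifting to hybridization controls the counts were 18 higher and 1 lower in DMSO and 5 higher and 9 lower with GDC-0623, which turns the balance round, and where the median of all probe sets was then -0.13 in place of -0.02. Leaving out 1 array gave 15 to 18 higher in DMSO, and 2 lower without replicate 1 of 72 h DMSO or replicate 2 or 3 of 24 h DMSO. With GDC-0623, 6 were higher without replicate 1 of the 24 h arrays, 3 without replicate 2 and 4 without replicate 3, and 2 were lower without replicate 1 or 2 of the 72 h arrays or replicate 1 or 3 of the 24 h arrays, and 1 without replicate 2 of the 24 h arrays.

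Slc6a9, the glycine carrier, was at 9.34, 9.26 and 9.34 in 72 h DMSO, against 8.30, 8.03 and 8.18 in 24 h DMSO, a rise of 1.14 ± 0.08 (adjusted p = 0.000166). Slc25a1 was at 9.89, 9.97 and 10.02 in 72 h DMSO, against 8.92, 8.73 and 8.83 in 24 h DMSO, a rise of 1.13 ± 0.07 (adjusted p = 0.000104). These were the only members that doubled with time in DMSO. Slc9a3r1 rose by 0.85, Slc25a33 by 0.70 and Slc44a2 by 0.63. The amino acid carriers Slc1a5, Slc1a4, Slc3a2, Slc6a15 and Slc7a5 also rose in DMSO, by 0.58, 0.55, 0.34, 0.31 and 0.31 in that order, so 6 of the 11 carriers lower with GDC-0623 at 72 h had risen with time in DMSO. Both comparisons use the 72 h DMSO arrays. The rise of Slc7a5 was lost when 5 of the 6 arrays were left out singly (highest adjusted p = 0.0878), in a fit over all 12 arrays (adjusted p = 0.117) and after shifting to hybridization controls (adjusted p = 0.0617), and that of Slc1a5 in the mean over its probe sets (0.18, adjusted p = 0.0803). The rise of Slc6a15 was kept in 3 of 6 fits with 1 array left out (highest adjusted p = 0.0546). The 4 that fell in DMSO were Slc35a4 by 0.53, Slc6a6 by 0.37, Slc25a32, a folate carrier, by 0.35 and the glutamate carrier Slc25a22 by 0.25. The call of Slc25a22 was lost when any 1 array was left out (highest adjusted p = 0.141), and that of Slc25a32 was kept in 2 of 6 such fits (highest adjusted p = 0.0928).

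With GDC-0623, the largest changes with time were a rise of 0.86 ± 0.09 in Slc25a1 (adjusted p = 0.00069), a fall of Slc16a10 (-0.64 ± 0.11, adjusted p = 0.00848), and rises of 0.57 ± 0.12 in Slc31a2 (adjusted p = 0.0198), 0.56 ± 0.08 in Slc9a3r1 (adjusted p = 0.00484) and 0.54 ± 0.09 in Slc1a5 (adjusted p = 0.00702). The call of Slc31a2 was lost without replicate 2 of 24 h GDC-0623 (adjusted p = 0.0909). Slc1a5 rose with time in both treatments, and was lower with GDC-0623 at both times. The other 10 of the 11 amino acid carriers lower at 72 h did not pass with time under GDC-0623. The 11 were taken for low values in the same 72 h GDC-0623 arrays, and only 12.6% of all members passed with time under GDC-0623. The contrast of the GDC-0623 effect between times, given next, equals the change with time under GDC-0623 minus that in DMSO. Of the 11, only Slc6a9 and Slc6a15 passed it, both lower, and it uses the arrays by which the 11 were taken. The cause of these differences was not tested.

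The effect of GDC-0623 itself was compared between 72 h and 24 h as a contrast over the 12 arrays, and 4 members passed, all with a lower effect at 72 h. Of all probe sets 2.21% passed, and of the other genes at a mean of at least 7, 2.03% had a higher and 2.43% a lower effect at 72 h. Leaving out 1 array gave 1 to 5 lower, with 1 when any single 24 h DMSO array was left out, or without replicate 1 of 24 h GDC-0623 or replicate 1 of 72 h DMSO, and 2 without replicate 2 of 24 h GDC-0623, replicate 2 or 3 of 72 h DMSO or replicate 3 of 72 h GDC-0623. No member had a higher effect, although 11 did at an unadjusted p under 0.05, and the replicate block and the trended robust prior called 1 and 2.

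Slc6a9 was at 8.21, 8.45 and 8.43 in 72 h GDC-0623, 9.34, 9.26 and 9.34 in 72 h DMSO, 8.34, 8.34 and 8.33 in 24 h GDC-0623 and 8.30, 8.03 and 8.18 in 24 h DMSO arrays. Its level was thus high in 72 h DMSO and alike in the other 3 groups. The GDC-0623 effect was -0.95 ± 0.09 at 72 h (adjusted p = 0.000154) and 0.17 ± 0.08 at 24 h (adjusted p = 0.207), and the difference was -1.12 ± 0.12 (adjusted p = 0.00026), which held without any 1 array. A second probe set of Slc6a9 gave a difference of -0.75 (adjusted p = 0.0086).

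Slc20a1 was at 10.58, 10.51 and 10.33 in 72 h GDC-0623, 10.77, 10.84 and 10.72 in 72 h DMSO, 10.83, 10.61 and 10.59 in 24 h GDC-0623 and 10.46, 10.37 and 10.44 in 24 h DMSO arrays. It was lower with GDC-0623 at 72 h and, without a call, higher at 24 h (0.25, adjusted p = 0.0665, and 0.0114 after shifting to hybridization controls), with arrays apart both times and a difference of -0.56 ± 0.12 (adjusted p = 0.0275). Slc25a30 was at 9.36, 9.54 and 9.53 in 72 h GDC-0623, 10.25, 10.14 and 10.21 in 72 h DMSO, 9.68, 9.69 and 9.62 in 24 h GDC-0623 and 9.91, 9.94 and 9.91 in 24 h DMSO arrays. It fell at both times, by 0.72 at 72 h and 0.26 at 24 h, a difference of -0.47 ± 0.10 (adjusted p = 0.0226). The 24 h call of Slc25a30 was kept in only 1 of 6 fits with 1 array left out (highest adjusted p = 0.0776, without replicate 2 of 24 h DMSO). Slc6a15 was at 9.53, 9.32 and 9.33 in 72 h GDC-0623, 9.88, 9.97 and 9.85 in 72 h DMSO, 9.45, 9.55 and 9.54 in 24 h GDC-0623 and 9.57, 9.58 and 9.61 in 24 h DMSO arrays, a difference of -0.43 ± 0.10 (adjusted p = 0.0468). The calls of these 3 did not hold when arrays were left out singly, with adjusted p-values reaching 0.0819 without replicate 2 of 72 h DMSO for Slc20a1, 0.0646 without replicate 2 of 24 h GDC-0623 for Slc25a30 and 0.127 without replicate 2 of 72 h DMSO for Slc6a15. The Slc20a1 difference was -0.17 in the mean over its probe sets (adjusted p = 0.573), and the Slc6a15 call was lost with the replicate block (adjusted p = 0.0594) and after shifting to hybridization controls (adjusted p = 0.0523).

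**Figure D5:**
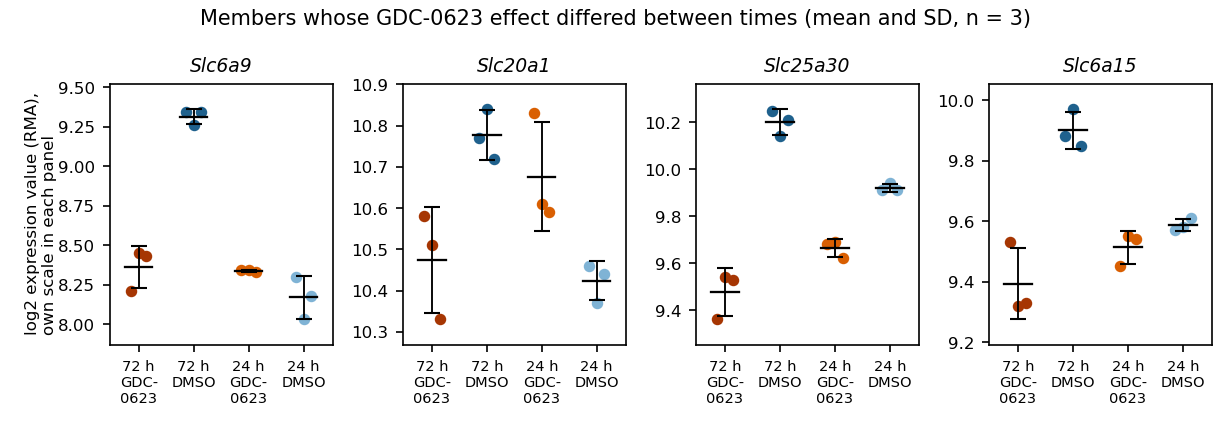
Log2 values of the 4 members whose GDC-0623 effect differed between 72 h and 24 h, on each array (points) with the group mean (line) and SD (bars), each panel on its own scale. In all 4 panels 72 h DMSO (dark blue) is the highest group, and 72 h GDC-0623 lies below it by 0.30 to 0.95.

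Carriers with other symbols also changed in both directions. Of 26 listed, 23 were measured, 13 of them at a mean of at least 7. Of the 23, 6 were higher and 3 lower at 72 h and 5 higher and 6 lower at 24 h. Among the other genes at a mean of at least 7, 21.2% were higher and 23% lower at 72 h. At 24 h these shares were 22.1% and 14.7%. Of all probe sets, 20.3% passed at 72 h and 16.7% at 24 h. Mfsd2a, which carries lysophospholipids, changed by -1.76 ± 0.17 at 72 h (adjusted p = 0.000196) and -1.53 ± 0.19 at 24 h (adjusted p = 0.000697), and Flvcr1, a choline and haem carrier, by -0.82 ± 0.12 at 72 h (adjusted p = 0.00151) and -0.63 ± 0.09 at 24 h (adjusted p = 0.00124). Ctns, which exports cystine from lysosomes, rose by 0.88 at 72 h (adjusted p = 0.00039) and 0.65 at 24 h (adjusted p = 0.000901). Of 7 measured chaperones and sodium pump subunits, 1 was higher (Bsg, 0.34) and 1 lower (Slc9a3r1, also a member) at 72 h, and 1 lower (Fxyd5, -0.60) at 24 h. Of these 7, 6 averaged at least 7, so the shares of the other genes given above apply here too. Whether either list differed from those shares was not tested.

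Of 14 regulators of carriers, 13 averaged at least 7. Of the 14, 5 were higher and 3 lower at 72 h, and 4 higher and 4 lower at 24 h. Among the other genes at a mean of at least 7, 21.2% were higher and 23% lower at 72 h. At 24 h these shares were 22.1% and 14.7%. Of all probe sets, 20.3% passed at 72 h and 16.7% at 24 h. Atf4, which drives amino acid carrier genes, changed by -0.42 ± 0.08 at 72 h (adjusted p = 0.00494) and -0.29 ± 0.07 at 24 h (adjusted p = 0.0202). Its target Trib3 changed by -1.41 ± 0.15 at 72 h (adjusted p = 0.000341) and -0.65 ± 0.09 at 24 h (adjusted p = 0.000902), and Myc by -1.02 ± 0.09 at 72 h (adjusted p = 0.00014) and -0.88 ± 0.12 at 24 h (adjusted p = 0.000953). The metallothioneins Mt1 and Mt2, which bind zinc and copper, rose by 0.58 and 0.61 at 72 h and by 0.34 and 0.76 at 24 h. With time in DMSO, 10 of the 14 rose and none fell, among them Trib3 by 1.68 and Atf4 by 0.39, and with GDC-0623 7 rose. Among the other genes at a mean of at least 7, 14.2% rose with time in DMSO and 8.12% with GDC-0623. Of all probe sets, 11.1% passed with time in DMSO and 7.7% with GDC-0623. The part of these regulators in the carrier levels was not tested.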

How the data were processed

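MC38 cells were profiled on 12 Affymetrix mouse 3′ expression arrays, 3 per group. The authors deposited log2 values from robust multichip averaging (RMA), a method that corrects background, quantile normalizes and summarizes the probes. No source used here gives the RMA version or says whether other arrays were normalized together with these. Quantile normalization removes a shift shared by most genes, and RMA gives no detection call. Since the arrays carry no counts, their number limits the precision.

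Of 45101 probe sets, 64 Affymetrix controls were left out and 45037 were tested. Names came from the platform annotation, where 34945 probe sets had 1 symbol, of which 34741 matched a current gene by identifier. A further 932 had several symbols and 9160 had none here, and no member was named from these. Groups were compared with limma 3.58.1 (lmFit, eBayes, two-sided) in R 4.3.3, on the 6 arrays of each comparison or, for the difference of effects, on all 12, with p-values adjusted by Benjamini-Hochberg across the whole array and called below 0.05. The code was tested on simulated data. Substrate classes follow family numbers, so some members carry other substrates than their class names. Slc4a1ap, not a transporter, was placed under other, apart from its number.

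Named were, per drug comparison and class, up to 3 called members with the largest change and no overlap of arrays, the 5 largest for the other comparisons, and 14 carriers described whatever their values, of which 1 is not reported here. Others named in passing were chosen after their values were seen. Members and lists were chosen with earlier results of these data known. Alternatives were a fit over 12 arrays, a replicate block, a filter on dim probe sets (at least 5 on 3 arrays), repeated quantile normalization, a shift by 18 hybridization control probe sets, a trended robust prior, the mean over a gene's probe sets, a level of 7 in each group, and leaving out each array. A pseudocount was not run on log2 values.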

Additional observations from a re-analysis of the deposited data

Results flagged for a closer look

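The effect of GDC-0623 differed between 72 h and 24 h, by the test of the difference itself (limma, 12 arrays, adjusted p under 0.05), for 4 members, with values on the log2 scale given as the 72 h effect minus the 24 h effect. The difference was -1.12 for Slc6a9, -0.56 for Slc20a1, -0.47 for Slc25a30 and -0.43 for Slc6a15. The Slc6a9 difference held without any 1 array. The other 3 calls were each lost without some single arrays, that of Slc20a1 also in the mean over its probe sets (-0.17, adjusted p = 0.573), and that of Slc6a15 also with the replicate block (adjusted p = 0.0594) and the shift by hybridization controls (adjusted p = 0.0523). The 3 arrays of a group are too few for a check of single outlying values.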

How the results depend on the processing

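No named member changed sign past the threshold, but the balance of higher against lower turned round in several settings. For time under GDC-0623 it did so with the shift by hybridization controls. At 24 h it did so with repeated quantile normalization (20 higher and 24 lower) and with the mean of a gene's probe sets (24 higher and 26 lower). At 72 h a single fit over all 12 arrays gave 34 higher and 33 lower, and the filter on dim probe sets gave 34 each. With probe sets at 5 or above on at least 3 arrays, 35 members were higher at 24 h, 14 lower with time in DMSO, 8 lower with time under GDC-0623, and 2 had a higher effect at 72 h than at 24 h. With the shift by hybridization controls, 8 were lower at 24 h, 1 lower with time in DMSO, and 5 higher and 9 lower with time under GDC-0623, and it moved the median difference of effects over all probe sets to -0.14, in place of 0.00. The trended robust prior gave 17 lower with time in DMSO, 7 lower with time under GDC-0623 and 2 with a higher effect at 72 h. The mean of a gene's probe sets gave 10 lower with time in DMSO and 1 with a higher effect at 72 h. A single fit over all 12 arrays gave 20 higher and 11 lower with time under GDC-0623. With the replicate block, 27 members were higher and 32 lower at 72 h, 23 higher and 20 lower at 24 h, 23 higher and 3 lower with time in DMSO, 12 higher and 5 lower with time under GDC-0623, and 1 had a higher and 3 a lower effect at 72 h than at 24 h. Same-numbered arrays of 2 groups correlated weakly, at 0.01 to 0.29, and differently numbered ones at -0.24 to 0.11. Whether the replicate numbers pair the samples is thus not settled, and the main fits did not pair them. Leaving out 1 array gave 19 to 27 higher and 22 to 28 lower at 72 h, 15 to 20 higher and 12 to 16 lower at 24 h, 6 to 9 amino acid carriers lower at 72 h, 15 to 18 higher and 2 to 3 lower with time in DMSO, 3 to 9 higher and 1 to 3 lower with time under GDC-0623, and 0 to 1 members with a higher and 1 to 5 with a lower effect at 72 h. The cause of these differences was not tested, apart from the fewer arrays or probe sets. Over the called members named by rule, a call was kept 425 times and lost 12 times in other settings, and kept 343 times and lost 59 times without 1 array. With 3 arrays per group and no detection call, changes below about 0.3 on the log2 scale often missed the threshold, and low levels could not be told from background.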
